A study of Homo sapiens with 6 samples.

Results

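The 10 genes described here encode SR splicing factors: SRSF1, SRSF2, SRSF3, SRSF4, SRSF5, SRSF6, SRSF7, SRSF9, SRSF10 and SRSF11. They were taken by name, and all 10 were found among the 58478 genes of the table and among the 17396 genes with enough counts to test. Their transcripts filled 106 of the 202907 transcript rows that have a gene in GENCODE release 29. The study sequenced ribosomal RNA-depleted total RNA from wild-type cells labelled Huh7, a human hepatocellular carcinoma line, after 24 h in normoxia (21% O2, 3 libraries) or hypoxia (1% O2, 3 libraries). Both groups shared the line, the medium and the time, and differed in oxygen. The series title asks about a hypoxia-induced long noncoding RNA and ferroptosis, and the SR genes were read here for how their RNA differed between the oxygen levels. Libraries are named by their columns, C1 to C3 for normoxia and C4 to C6 for hypoxia.

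SR proteins carry an RNA recognition motif and a tail rich in arginine and serine, bind exonic enhancers in pre-mRNA and help the spliceosome to choose splice sites. Many SR genes limit their own output by splicing: a poison exon with an in-frame stop codon is included, or an intron is kept, and the resulting RNA is degraded by nonsense-mediated decay (NMD) or held in the nucleus. A transcript that the annotation classes as retained_intron or nonsense_mediated_decay is therefore not expected to yield the full SR protein. SR proteins are phosphorylated by the SRPK and CLK kinases and carried into the nucleus by transportin-3.

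Sequences of the transcripts on which the results turn were read from GENCODE release 29 on GRCh38, 5′ to 3′. Of the members' 21 NMD rows, 10 had their stop codon in a cassette exon absent from the gene's most abundant coding row, 3 in an exon that keeps an intron of that row and 8 in an exon that overlaps one of its exons. The 3 runs below go from the first base of a cassette exon to its stop codon, which is in capitals, and show where the reading frame ends in rows that did and did not change. The SRSF3-203 run lies at chr6:36599821-36599854 on the plus strand, in an exon of 456 bases whose stop is 548 bases before the last exon junction. The SRSF6-202 run lies at chr20:43459153-43459304 on the plus strand, in an exon of 268 bases with the stop 534 bases before the last junction. The SRSF7-205 run lies at chr2:38749319-38749346 on the minus strand, in an exon of 449 bases with the stop 688 bases before the last junction.
SRSF3-203: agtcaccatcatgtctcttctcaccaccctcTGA
SRSF6-202: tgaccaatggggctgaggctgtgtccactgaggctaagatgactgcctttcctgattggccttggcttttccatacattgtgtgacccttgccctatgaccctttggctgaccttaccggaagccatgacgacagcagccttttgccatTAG
SRSF7-205: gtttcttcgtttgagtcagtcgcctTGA

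SRSF5-212, the most abundant retained-intron row of SRSF5, keeps 1 intron of 1215 bases (chr14:69769252-69770466, plus strand) that the coding row SRSF5-217 splices out. The borders of that intron are shown with intron bases in capitals and exon bases in lower case, since this row held the largest rise in counts among the members' retained-intron rows. Its 5′ splice site is at chr14:69769242-69769261 and its 3′ splice site at chr14:69770447-69770476.
SRSF5-212 5′ border: cagctggcagGTTTGTTGAA
SRSF5-212 3′ border: CACAATTATCTTGTGTTAAGgatctcaaag
The NMD row SRSF5-211 ends its reading frame in an exon of 1030 bases (chr14:69769511-69770540) that begins inside the same intron. In SRSF7-208, the most abundant NMD row of SRSF7, the stop lies in an exon of 1127 bases that keeps an intron. Of the members' 28 retained_intron rows, 7 held a whole intron of the gene's most abundant coding row. In the other 21 no exon spanned a whole intron of that row, and introns of other coding rows were not checked.

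**Figure D1:**
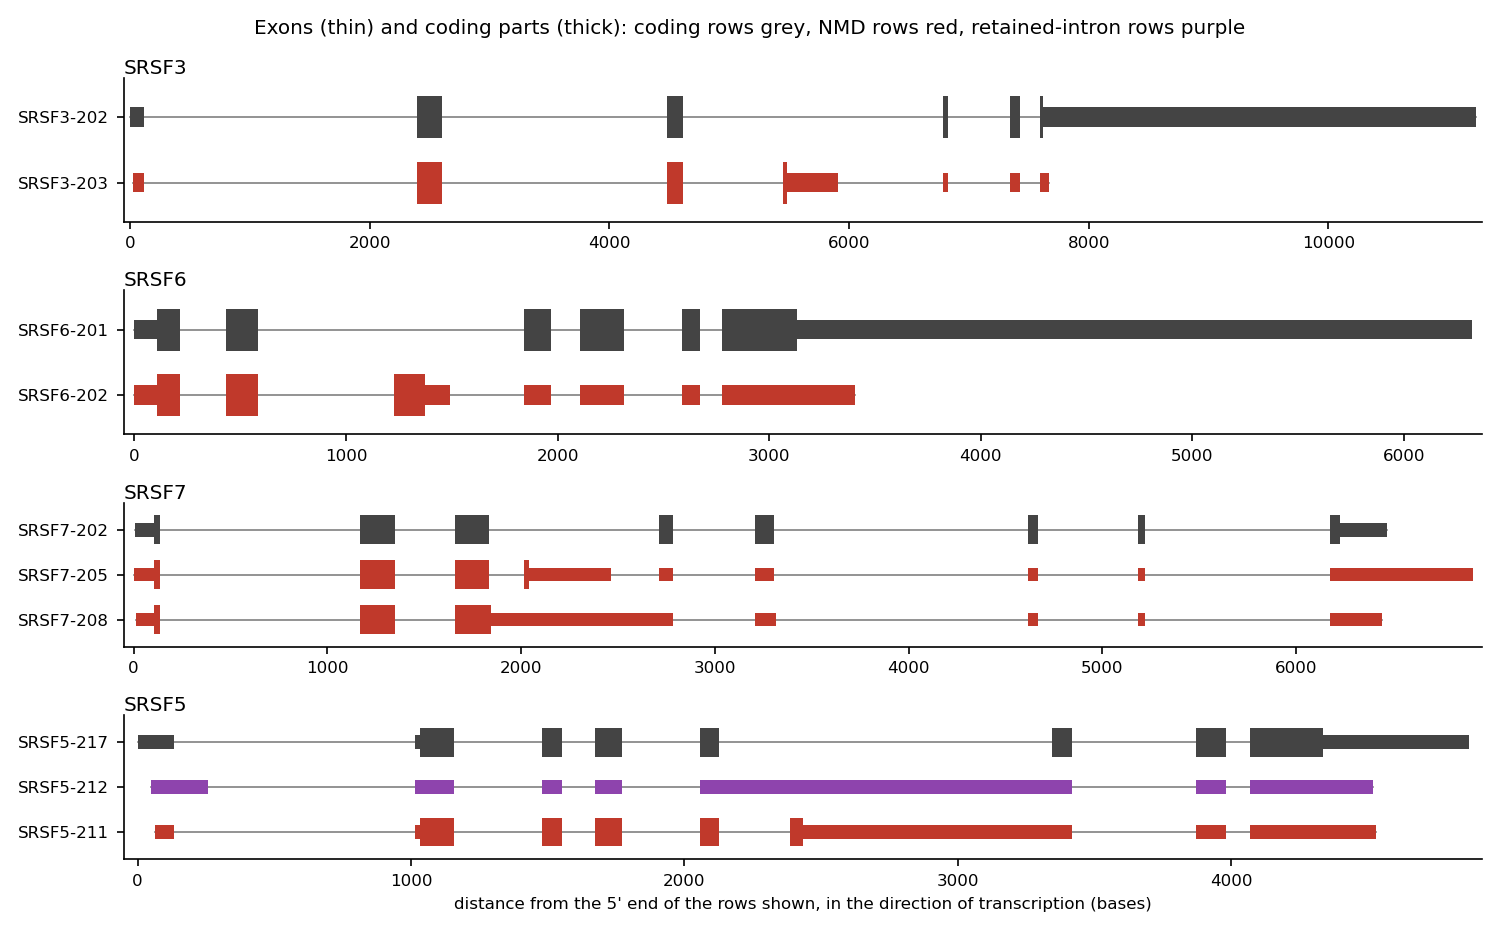
Exon maps of rows of SRSF3, SRSF6, SRSF7 and SRSF5. The x axis is the distance in bases from the 5′ end of the rows shown, in the direction of transcription; thin boxes are exons and thick boxes coding parts, with coding rows in grey, NMD rows in red and retained-intron rows in purple. SRSF3-203, SRSF6-202 and SRSF7-205 carry an extra exon in which the coding part ends, and SRSF5-212 joins a pair of exons by keeping the 1215-base intron between them.

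The table held 37621426 to 40794783 expected counts per library, of which 6.117% to 6.388% fell on rows with no gene in GENCODE 29. Since nothing in the labels describes separate cultures beyond the word biological, p-values measure the spread among the 6 libraries, which may be technical. Of 10 hepatocyte markers, 7 were under 1 CPM (counts relative to library size) in both groups and AFP, APOA1, TTR and GPC3 had 0 counts, so the libraries go against their label in the markers of the liver lineage. The summed hepatocyte list was 8.87 to 10.7 CPM in normoxia and 20.8 to 21.6 CPM in hypoxia, and the summed leukocyte list 7.14 to 7.27 and 43.7 to 53.3 CPM, the latter mostly CD68, a lysosomal protein that is not restricted to leukocytes. The fibroblast list summed to 72.6 to 75.3 and 58.5 to 67.8 CPM and the endothelial list to 11.3 to 12.3 and 5.33 to 6.11 CPM. The fibroblast sum was mostly COL1A1, which fell from 71.4 to 56.9 CPM, while 2 of the 3 genes tested rose, PDGFRB 2.87-fold. The endothelial fall was mostly CDH5, from 9.15 to 0.453 CPM, while of 4 genes tested 2 fell and 2 rose, PECAM1 2.30-fold. Markers within the fibroblast and endothelial lists thus went in opposite directions. All 3 hepatocyte genes tested rose: HNF4A from 1.30 to 7.01 CPM, TF from 8.24 to 12.1 CPM and SERPINA1 from 0.067 to 1.83 CPM. Of 3 leukocyte genes tested, 2 rose and 1 did not pass. The part of these shifts in the results was not tested. In bulk RNA, fewer cells of a type and less RNA per cell cannot be told apart. The hypoxia-responsive genes CA9, VEGFA and NDRG1 were 8.08-fold, 7.68-fold and 20.2-fold higher in hypoxia, which matched the labels of the groups.

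At the level of whole genes, 7 of the 10 members fell in hypoxia, 2 rose and 1 did not pass the test. The falls were about 2-fold for SRSF7, SRSF1 and SRSF2 and smaller for SRSF10, SRSF11, SRSF6 and SRSF3. SRSF5 and SRSF9 rose. Over all genes tested, 36.5% rose and 36.3% fell (edgeR's quasi-likelihood test, Benjamini-Hochberg adjusted p under 0.05), and the median log2 change was 0.02 against -0.38 for the 10 members. The libraries of the 2 groups did not overlap in 9 of 10 members, and in 75.7% of all genes tested.

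SRSF1, a founding member of the family that promotes exon inclusion and 5′ splice site choice, lay at chr17:58003360-58007346. Its gene sum was 241, 253 and 257 CPM in normoxia and 123, 123 and 130.4 CPM in hypoxia. The hypoxia libraries were all lower and near each other, and the log2 change was -0.99 (SE 0.0436, adjusted p = 7.67e-09, edgeR). SRSF2, which acts in both constitutive and alternative splicing, lay at chr17:76734115-76737374. Its levels were 159, 157 and 159 CPM, against 79.1, 79.6 and 82.0 CPM in hypoxia. The log2 change of SRSF2 was -0.98 (SE 0.0391, adjusted p = 3.68e-09, edgeR), with an SD of 1.46 CPM in normoxia and 1.53 CPM in hypoxia. SRSF7, a shuttling SR protein with a zinc knuckle, lay at chr2:38743599-38751494. It was at 114, 118 and 120.2 CPM in normoxia and 61.6, 57.3 and 57.0 CPM in hypoxia, a log2 change of -0.998 (SE 0.0472, adjusted p = 1.38e-08, edgeR).

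SRSF10 (chr1:23964804-23980927), which acts as a splicing repressor when dephosphorylated, was at 140.2, 138 and 144 CPM in normoxia and 80.6, 74.985 and 85.5 CPM in hypoxia. It fell 1.75-fold (adjusted p = 1.46e-07, edgeR). SRSF11 (chr1:70205682-70253052) was at 163, 163 and 172 CPM against 119, 124 and 130.4 CPM and fell 1.34-fold (adjusted p = 1.3e-05, edgeR). SRSF6 (chr20:43457928-43464247) was at 66.4, 70.0 and 70.8 CPM against 53.3, 54.4 and 54.7 CPM and fell 1.28-fold (adjusted p = 3.83e-05, edgeR). SRSF3 (chr6:36594353-36605600), the smallest SR protein and an mRNA export adaptor together with SRSF7, had the smallest fall of the 7, 1.22-fold, from 209.9, 215 and 220.2 CPM to 184, 169.5 and 177 CPM (adjusted p = 0.00016, edgeR). In each of these 4 genes the groups of libraries did not overlap.

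SRSF5 (chr14:69726900-69772005) rose from 105, 106 and 103 CPM in normoxia to 166, 158 and 153 CPM in hypoxia, 1.52-fold (adjusted p = 3.62e-07, edgeR). SRSF9 (chr12:120461668-120469793), which has a short arginine-serine tail, rose 1.20-fold, from 89.8, 90.4 and 89.6 CPM to 106, 107 and 109 CPM (adjusted p = 0.00012, edgeR). The SRSF9 rise was not called when FPKM was tested with limma (log2 change 0.07, adjusted p = 0.104). SRSF4 (chr1:29147743-29181987) was at 107, 114 and 117 CPM in normoxia and 133, 114 and 121 CPM in hypoxia. Its groups overlapped and its log2 change of 0.12 did not pass (SE 0.0615, adjusted p = 0.105, edgeR), although it passed without library C5 (0.17, adjusted p = 0.0252) and with a filter at 50 counts (0.17, adjusted p = 0.0231) and was -0.03 when scaled by library totals.

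**Figure D2:**
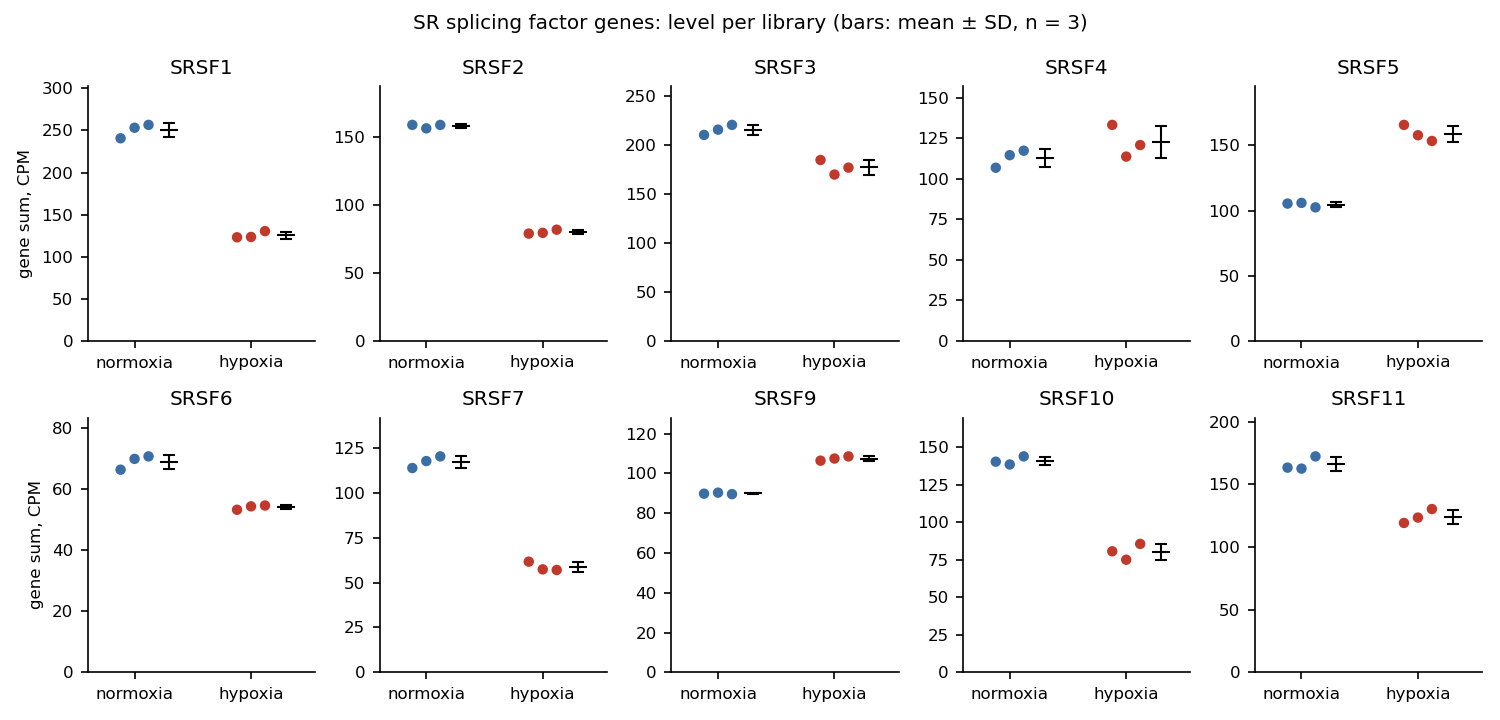
Gene sums of the 10 SR genes in CPM (y axis, from 0, scaled separately per gene) for normoxia (blue) and hypoxia (red). Points are libraries and bars the mean ± SD over 3 libraries. SRSF1, SRSF2 and SRSF7 sit at about a 2-fold lower level in hypoxia, SRSF5 and SRSF9 sit higher, and the 2 groups of SRSF4 overlap.

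Levels were compared between genes per length, as FPKM recomputed from expected counts and the deposited lengths and scaled to library totals. In normoxia SRSF3 was the most abundant member, at 145 ± 7.53 FPKM (SD, n = 3), followed by SRSF1 at 99.8 ± 1.24 and SRSF2 at 92.8 ± 2.47 FPKM. SRSF9, SRSF7, SRSF11 and SRSF5 lay between 75.8 and 82.5 FPKM, and within this set the range of SRSF11 met those of SRSF9, SRSF7 and SRSF5. SRSF10 was at 62.3 ± 1.24, SRSF4 at 43.2 ± 1.70 and SRSF6 at 25.4 ± 0.520 FPKM. In hypoxia SRSF3 (115 ± 4.09 FPKM) and SRSF5 (110.2 ± 1.502 FPKM) led with meeting ranges, and SRSF9 followed at 86.8 ± 0.789 FPKM. SRSF1 moved from place 2 to place 6 (46.3 ± 3.06 FPKM), between SRSF2 and SRSF4 with ranges that met both, and SRSF5 from place 7 to place 2. SRSF6 was the lowest member in both conditions.

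The gene sums were then split by transcript class. Sums over the protein_coding rows fell in 7 members, rose in SRSF9 and did not pass in SRSF4 and SRSF11. Among all 12641 protein_coding sums tested, 42.1% fell and 29.7% rose. Their median log2 change was -0.14. The class levels below are on the CPM scale of the gene sums, so the classes of a gene add up to its level.

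SRSF3 showed the widest split among genes that fell. Its coding rows were at 113, 121 and 116 CPM in normoxia and 51.3, 43.6 and 50.1 CPM in hypoxia, a log2 change of -1.28 (SE 0.0683, adjusted p = 1.56e-06, edgeR). Its NMD rows went the other way, from 25.4, 21.4 and 22.7 CPM to 38.7, 47.5 and 41.1 CPM, a log2 change of 0.86 (SE 0.0921, adjusted p = 8.74e-05, edgeR). No library of one group reached the other in either class. The retained-intron rows of SRSF3 measured 75.4 ± 5.65 CPM in normoxia and 86.1 ± 8.01 CPM in hypoxia (SD, n = 3, log2 change 0.18, adjusted p = 0.101, edgeR). This change passed without library C5 or C3 and with a filter at 50 counts.

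SRSF5 had opposite changes in its classes. Its coding rows fell from 56.4, 58.1 and 54.3 CPM to 37.7, 35.0 and 37.4 CPM (log2 change -0.63, SE 0.0532, adjusted p = 2.27e-05, edgeR). Its retained-intron rows rose from 39.4, 39.1 and 37.0 CPM to 105, 97.1 and 93.0 CPM (log2 change 1.34, SE 0.0576, adjusted p = 4.6e-07, edgeR). Its single NMD row rose 3.36-fold from a low level, 1.38 ± 0.555 to 4.69 ± 0.474 CPM (adjusted p = 0.001, edgeR). The summed coding class of SRSF5 was lower in each hypoxia library than in any normoxia library, while its single coding rows went in both directions.

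The coding rows of SRSF2 fell 2.53-fold, from 124, 119 and 126 CPM to 49.97, 46.7 and 50.6 CPM (adjusted p = 2.36e-07, edgeR). Its retained-intron rows were at 16.7 ± 2.16 and 16.4 ± 1.59 CPM and its NMD rows at 18.4 ± 4.37 and 14.7 ± 2.44 CPM, and neither class passed the test (adjusted p = 0.828 and 0.158, edgeR). Without library C3 the NMD sum of SRSF2 was called as fallen (log2 change -0.52, adjusted p = 0.0196, edgeR). SRSF6 has 1 coding and 1 NMD row in the table. The coding row fell from 42.8, 46.2 and 50.8 CPM to 30.7, 30.1 and 35.1 CPM (log2 change -0.56, adjusted p = 0.000856, edgeR), while the poison-exon row was at 23.6, 23.8 and 20.0 CPM and then 22.6, 24.3 and 19.6 CPM (log2 change -0.03, adjusted p = 0.834, edgeR).

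In SRSF1 and SRSF7 both the coding and the NMD sums fell, and in SRSF10 the coding and retained-intron sums. SRSF1 coding rows fell 2.19-fold (197 ± 8.52 to 90.7 ± 8.77 CPM, adjusted p = 5.94e-06, edgeR) and its NMD rows 1.62-fold (49.3 ± 0.787 to 30.7 ± 5.99 CPM, adjusted p = 0.00157, edgeR). SRSF7 coding rows fell 2.34-fold (57.2 ± 1.122 to 24.6 ± 1.04 CPM, adjusted p = 4.53e-07, edgeR) and its NMD rows 1.77-fold (58.9 ± 3.35 to 33.5 ± 3.39 CPM, adjusted p = 6.52e-05, edgeR). In SRSF10 the fall was 1.87-fold for coding and 1.85-fold for retained-intron rows (adjusted p = 1.22e-05 and 1.85e-05, edgeR). The smaller classes of SRSF1 and SRSF10 were not lower: SRSF1 retained-intron rows were at 3.63 ± 0.588 and 4.31 ± 1.67 CPM and SRSF10 NMD rows at 3.14 ± 0.651 and 4.13 ± 0.609 CPM, and neither passed (adjusted p = 0.504 and 0.163, edgeR). SRSF11 differed from them, with coding rows at 70.2 ± 2.06 and 67.5 ± 0.999 CPM (adjusted p = 0.245, edgeR) and a fall in the rows of other types, mostly processed transcripts, from 92.7 ± 3.54 to 55.0 ± 6.43 CPM (adjusted p = 9.27e-05, edgeR). The groups of the SRSF11 coding sum did not overlap. Scaled by library totals, that sum was called as fallen (log2 change -0.21, adjusted p = 0.00408, edgeR).

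Over the members, NMD sums rose in SRSF3 and SRSF5, fell in SRSF1, SRSF7 and SRSF11, did not pass in SRSF2, SRSF6 and SRSF10, and were too low to test in SRSF4 and SRSF9. Of all NMD sums tested, 19.6% rose and 17.9% fell. Retained-intron sums rose in SRSF5 and SRSF9, fell in SRSF10 and did not pass in 5 members (SRSF6 and SRSF11 have no such row), against 29.3% risen and 18.5% fallen of all such sums. Of the 5, the SRSF4 sum passed as risen without library C3 or C5 and with a filter at 50 counts. The SRSF7 sum passed as fallen without library C4 and when scaled by library totals. SRSF9 had retained-intron rows at 14.1, 13.1 and 14.8 CPM in normoxia and 21.4, 20.8 and 22.5 CPM in hypoxia (log2 change 0.61, adjusted p = 0.000257, edgeR). None of these rows held a whole intron of the coding row SRSF9-201. Exon sequence of SRSF9 overlaps GATC on the opposite strand over up to 1704 bases. The coding rows of SRSF9 were at 75.9 ± 1.21 and 85.8 ± 0.754 CPM (log2 change 0.17, adjusted p = 0.00722, edgeR). The coding rise of SRSF9 shrank to 0.02 and was not called when scaled by library totals, and was 0.13 and not called without a low-count filter (adjusted p = 0.0554). Sums of rows of other types rose in SRSF5 and fell in SRSF10 and SRSF11, against 29% risen and 13.8% fallen of all such sums.

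**Figure D3:**
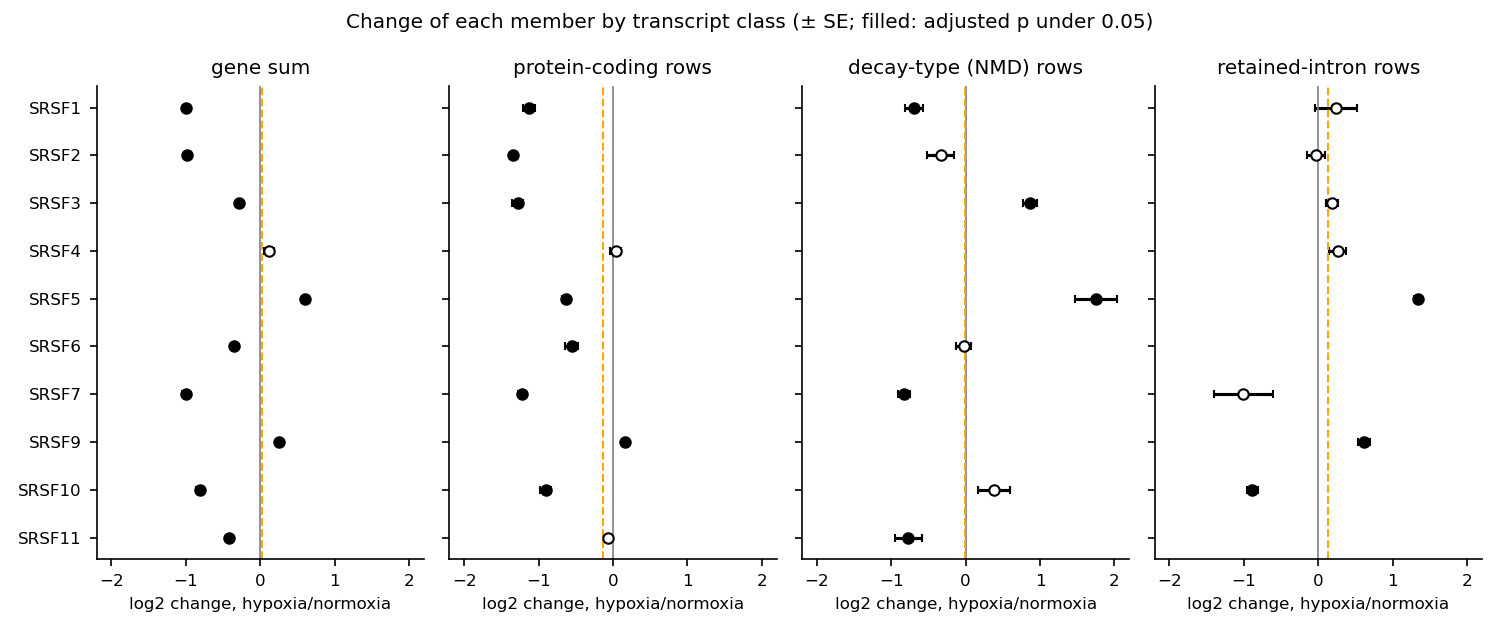
Log2 change, hypoxia against normoxia (x axis), of the gene sum and of the sums over protein-coding, NMD and retained-intron rows for each SR gene. Points are edgeR estimates with their SE, filled where the adjusted p was under 0.05; the dashed orange line is the median of all features tested. SRSF3 and SRSF5 are left of 0 for coding rows and right of 0 for NMD rows, while SRSF1 and SRSF7 are left of 0 for both.

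The balance within a gene was measured as the ratio of retained-intron and NMD counts to coding counts, in which library scaling cancels. The ratio rose in 4 of 10 members, SRSF5, SRSF3, SRSF2 and SRSF9, and fell in none by limma (adjusted p under 0.05). At an unadjusted p under 0.05 SRSF7, SRSF6 and SRSF1 also rose and SRSF11 fell, and edgeR's diffSpliceDGE called these changes. Of the 6730 genes with both classes, 12.5% rose and 2.9% fell, and the median log2 change was 0.24, so a shift toward these classes was seen across genes. The median of the members was 0.48.

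Put as a share of the 2 noncoding classes plus the coding class, SRSF5 went from 41.8%, 40.83% and 41.8% in normoxia to 74.4%, 74.5% and 72.2% in hypoxia. The log2 change of its ratio was 1.98 (SE 0.0825, adjusted p = 4.14e-05, limma). SRSF3 went from 46.0%, 44.0% and 47.5% to 72.2%, 74.3% and 71.7%, a log2 change of 1.66 (SE 0.0869, adjusted p = 0.000108, limma). In both genes the lowest hypoxia library lay far above the highest normoxia library. SRSF2 went from 22.2%, 23.8% and 20.5% to 36.8%, 41.3% and 38.3% (log2 change 1.15, SE 0.114, adjusted p = 0.00143, limma). With NMD rows alone in the numerator the SRSF2 change was 1.02 and did not pass (adjusted p = 0.0859).

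SRSF9 had a smaller rise, from 15.6% ± 0.986 to 20.2% ± 0.633 (SD, n = 3; log2 change 0.45, adjusted p = 0.0328, limma), and it was not called when any 1 library was left out (0.39 to 0.50). The shares of SRSF7 (51.2% ± 1.84 to 57.9% ± 3.45), SRSF6 (32.6% ± 3.86 to 41.0% ± 4.61) and SRSF1 (21.2% ± 0.870 to 27.8% ± 6.29) did not pass by limma (adjusted p = 0.0755, 0.103 and 0.16), and passed with diffSpliceDGE. With retained-intron rows alone the SRSF1 change was 1.31 against 0.50 and passed by limma (adjusted p = 0.0347). The SRSF1 share includes the NMD row SRSF1-204, at 0% of the gene's counts in normoxia and 7.53% ± 3.97 in hypoxia. The main NMD row of SRSF1, SRSF1-206, went from 19.4% ± 0.663 to 16.3% ± 1.78 of the gene. The SRSF1 ratio without SRSF1-204 was not tested. SRSF10 was at 49.99% ± 1.53 and 52.1% ± 0.729 and SRSF4 at 30.9% ± 2.04 and 34.3% ± 3.55 (adjusted p = 0.36 and 0.311, limma). With NMD rows alone in the numerator the SRSF10 change was 1.30 and passed (adjusted p = 0.0474). SRSF11 held few such counts, 4.35% ± 0.519 in normoxia and 2.72% ± 0.205 in hypoxia (log2 change -0.69, adjusted p = 0.0666, limma).

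Long transcripts collect more counts per molecule, so shares were also computed per kilobase over all rows of a gene. On that scale the coding rows of SRSF3 went from 48.7% ± 1.34 to 19.8% ± 0.177 of the gene and its NMD rows from 15.5% ± 0.687 to 32.2% ± 3.60. The coding rows of SRSF5 went from 60.3% ± 2.04 to 34.0% ± 0.881 and its retained-intron rows from 25.5% ± 0.522 to 43.6% ± 0.801. The poison-exon row of SRSF6 held 55.5% ± 4.43 of the gene per kilobase in normoxia and 64.2% ± 4.46 in hypoxia. By counts the coding row led in both conditions, at 67.4% ± 3.86 and 59.0% ± 4.61. The order per kilobase rests on deposited lengths of 1680 bases for SRSF6-202 and 4353 for SRSF6-201. SRSF6-202 is annotated with a shorter last exon, and whether its RNA ends there was not tested.

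**Figure D4:**
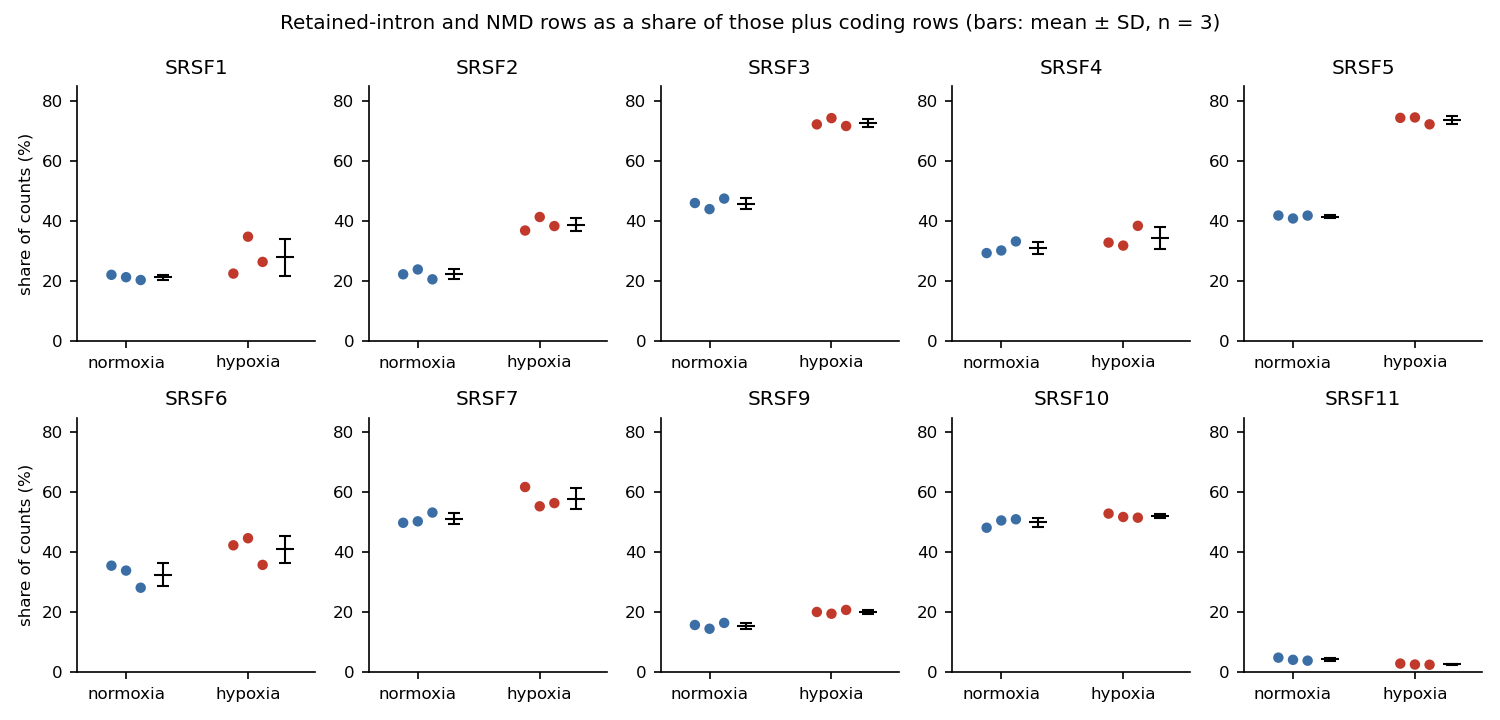
Share of retained-intron and NMD counts among those plus coding counts (y axis, percent) for each SR gene in normoxia (blue) and hypoxia (red). Points are libraries and bars the mean ± SD over 3 libraries. In SRSF3 and SRSF5 the hypoxia libraries lie at 71.7% or more and the normoxia libraries at 47.5% or less, SRSF2 rises to a mean of 38.8%, and SRSF10 lies between 48.2% and 53.0% in all 6 libraries.

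Single transcript rows carried these sums unevenly. Of the members' 106 rows, 90 had enough counts to test. Of these, 17 rose, 28 fell and 45 did not pass, against 16.7% risen and 15% fallen of the 63530 rows tested. The 17 include SRSF1-204, which passed the count filter only through hypoxia. RSEM divides reads among overlapping rows of a gene, so a row is less certain than a class sum.

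The poison-exon row of SRSF3, SRSF3-203, was at 24.9, 21.2 and 22.5 CPM in normoxia and 38.4, 47.3 and 41.0 CPM in hypoxia (log2 change 0.86, SE 0.098, adjusted p = 0.00123, edgeR). It held nearly all counts of the class, and SRSF3-204 stayed under 1 CPM in each library. Both coding rows fell, SRSF3-202 from 73.5 ± 7.47 to 34.6 ± 5.37 CPM and SRSF3-208 from 43.1 ± 4.12 to 13.7 ± 1.49 CPM (adjusted p = 0.00187 and 0.00012, edgeR). SRSF5-217, the main coding row of SRSF5, fell 3.87-fold, from 41.8, 42.8 and 38.9 CPM to 12.9, 9.65 and 9.92 CPM (adjusted p = 0.000148, edgeR). Of the other coding rows of SRSF5, 2 low ones rose, SRSF5-202 from 0.824 ± 0.448 to 4.59 ± 1.92 CPM and SRSF5-209 from 1.6 ± 0.662 to 4.14 ± 0.0666 CPM (adjusted p = 0.0158 and 0.0284, edgeR), 3 did not pass and 2 were too low to test. The intron-keeping SRSF5-212 rose 2.06-fold, from 31.9, 31.6 and 27.7 CPM to 67.3, 67.3 and 57.0 CPM (adjusted p = 0.000422, edgeR). The row SRSF5-207, which keeps that intron and another, rose 4.09-fold to 21.2 ± 5.81 CPM (adjusted p = 0.00302, edgeR).

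SRSF2-202, the coding row of SRSF2 with the most counts in normoxia, fell 5.21-fold, from 74.6, 68.6 and 76.6 CPM to 13.5, 14.7 and 14.7 CPM (adjusted p = 8.7e-06, edgeR), while the coding row SRSF2-203 fell 1.53-fold, to 32.7 ± 3.94 CPM, and was the higher of the pair in hypoxia. The retained-intron rows of SRSF2 went in opposite directions under a class sum that did not change by test: SRSF2-206 fell 3.56-fold to 2.62 ± 0.283 CPM and SRSF2-209 rose 3.04-fold to 9.17 ± 0.992 CPM (adjusted p = 0.000865 and 0.00549, edgeR). Of the NMD rows, SRSF1-206 fell from 48.5, 48.2 and 48.6 CPM to 19.7, 22.5 and 19.2 CPM and SRSF7-208 from 47.4, 49.1 and 51.9 CPM to 28.2, 24.3 and 26.6 CPM (adjusted p = 9.6e-05 and 0.000436, edgeR). The poison-exon row SRSF7-205 was at 6.15 ± 0.751 and 4.34 ± 0.615 CPM and did not pass (adjusted p = 0.0647, edgeR).

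SRSF1-204, an NMD row whose stop lies in an exon that keeps an intron, had 0 counts in the 3 normoxia libraries and 4.09, 13.8 and 10.5 CPM in hypoxia. Against a floor of 3 counts per normoxia library it was at least 125-fold higher. The row was picked after its values were seen and passed the count filter only through hypoxia. No test value is given for it, although it stands in the count of risen rows above. That exon lies over its full 1051 bases on an exon of another annotated gene on the same strand, AC015813.2, so reads there could have been divided between the genes. SRSF1-204 is counted in the NMD sum and the ratio of SRSF1. That sum fell 1.62-fold, and the row SRSF1-206 alone fell 2.41-fold. SRSF2 and SRSF9 share exon sequence with MFSD11 and GATC on the opposite strand, and the strand setting of the counting was not given in the sources used here. Pseudogenes SRSF1P1, SRSF9P1 and SRSF10P1 were at or under 0.101 CPM in each library.

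**Figure D5:**
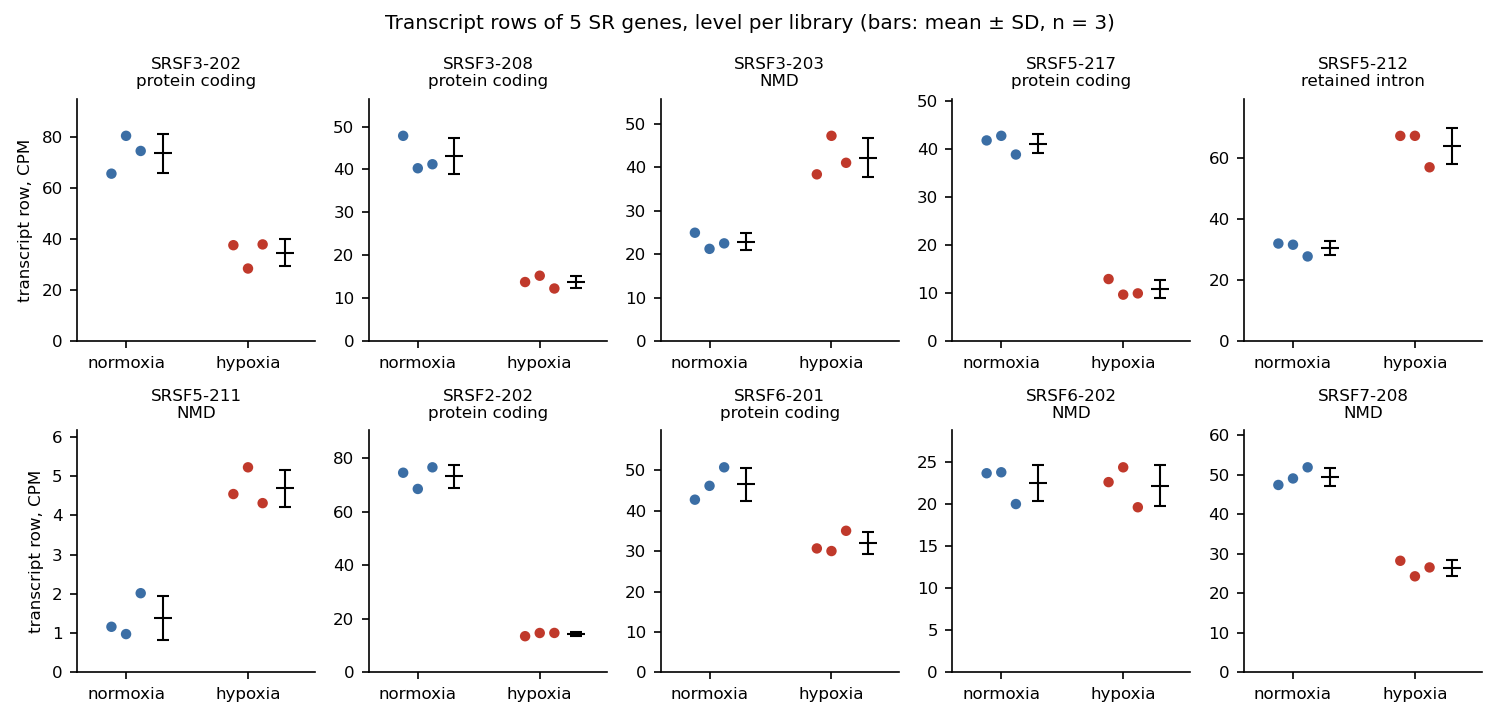
Transcript rows of SRSF3, SRSF5, SRSF2, SRSF6 and SRSF7 in CPM (y axis, from 0, scaled separately per row) in normoxia (blue) and hypoxia (red). Points are libraries and bars the mean ± SD over 3 libraries. The poison-exon row SRSF3-203 and the intron-keeping row SRSF5-212 are higher in hypoxia, the coding rows shown are lower, and the groups of SRSF6-202 overlap.

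Other genes of the pathway were read by lists. The counts of each list below stand beside 36.5% risen and 36.3% fallen of all genes tested, at a median log2 change of 0.02. Of 13 SR protein kinases, phosphatase subunits and importers, 6 rose and 7 fell. Their median log2 change was -0.22. CLK1, a nuclear kinase that releases SR proteins from speckles, rose from 28.95, 31.1 and 32.7 CPM to 194, 181 and 204 CPM, 6.24-fold (adjusted p = 8.52e-11, edgeR). The noncoding-to-coding ratio of CLK1 fell (log2 change -1.01, adjusted p = 0.0124, limma), and in this list the ratio rose in 1 and fell in 1 of 11 genes tested. CLK3 rose 2.64-fold and CLK4 1.98-fold. The cytoplasmic kinase SRPK1 fell 1.39-fold, the phosphatase subunit PPP1R10 2.14-fold and the importer TNPO3 1.17-fold (adjusted p = 3.42e-06, 1.67e-08 and 0.000427, edgeR).

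Of 30 SR-related proteins outside the 10 members, 29 were tested, 12 rose and 14 fell, with a median of -0.05. TRA2A and TRA2B, which bind exonic enhancers, fell 1.19-fold and 1.36-fold, and their noncoding-to-coding ratios rose by 1.17 and 0.95 on the log2 scale (adjusted p = 0.00236 and 0.00194, limma). SRSF8 fell 2.75-fold to 3.58 ± 0.170 CPM, and SRSF12 had 6 counts in all and was not tested. RSRP1 had the largest rise of the named genes of this list, 2.61-fold, and THRAP3 fell 2.09-fold. In this list the ratio rose in 7 and fell in 1 of 26 genes tested, with a median of 0.27. Of all genes with both classes 12.5% rose and 2.9% fell, with a median of 0.24.

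Of 26 hnRNP proteins, which often oppose SR proteins at splice sites, 18 fell and 5 rose, with a median of -0.34. HNRNPAB fell 2.72-fold and PTBP2 2.14-fold, while HNRNPUL2 rose 1.91-fold (adjusted p = 2.39e-10, 2.1e-07 and 9.74e-08, edgeR). Of 20 NMD factors, 9 were higher and 10 lower by test, at a median of -0.12. UPF1, the central helicase of NMD, fell from 116 ± 4.44 to 81.3 ± 1.10 CPM, 1.43-fold, and the release factor ETF1 fell 2.09-fold. EIF4A3 of the exon junction complex rose 2.28-fold and the nuclease SMG6 2.03-fold (adjusted p = 9.14e-10 and 2.92e-08, edgeR).

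The genes whose levels over the 6 libraries lay nearest to the mean profile of the 10 members were SETD3, RAB10 and PRR14L. Nearness was the Euclidean distance between centred log2 CPM, 0.0127, 0.0203 and 0.0259. Their log2 changes were -0.39, -0.38 and -0.39.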

How the data were processed

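The authors deposited 1 table of 251062 transcript rows with an expected count per library, read counts that RSEM divides among transcripts. The tools named in the submitters' processing notes are RSEM, HISAT2 and cutadapt, with the genome build GRCh38 (hg38). Tool versions, annotation release and strand setting were not given in the sources used here. Deposited transcript lengths were used for FPKM, and the 6 deposited FPKM columns were not used. Rows were joined to GENCODE release 29 for gene and transcript type (202907 rows, 58478 genes). Of the members' 106 rows, 94 have the length of that release, and the other 12 include the most abundant coding row of 8 members, so the authors' annotation differs from release 29 in part.

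Expected counts were summed per gene, per gene and class, or kept per row, rounded, filtered (filterByExpr), scaled by TMM and tested with edgeR 4.0.16 (quasi-likelihood, two-sided; R 4.3.3), with Benjamini-Hochberg adjustment over the whole table and a threshold of 0.05. The log2 ratio of retained-intron and NMD to coding counts (pseudocount 0.5, at least 10 counts on average in each) was tested with limma 3.58.1. All CPM values use the TMM-adjusted library sizes of the gene sums. A floor is 3 counts per library and covers counting error only. The test of each gene's groups used all 6 libraries without covariates. Pairs of libraries of a group differed beyond sampling noise (chi-square per degree of freedom 4.36 to 10.1), so none was counted as a duplicate.

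On simulated counts for the gene sums (17072 genes), the test recovered 85.1% of 67 changes of 1.5-fold, 97% of 67 of 2-fold and 98.5% of 66 of 4-fold. For class sums (29457 sums) it recovered 52.2%, 88.1% and 98.5%. For the ratio (6568 genes) it recovered 7.46%, 47.8% and 83.3%, and for transcript rows (59224 rows) 0%, 17.9% and 57.6%. The changes were put only into features above a minimum mean count, and for the ratio only into genes with a single noncoding class. Recovery at lower counts was not measured. Alternatives were DESeq2 1.42.0, other scalings and filters, limma on log2(FPKM + 0.5), other numerators and pseudocounts of the ratio, counts per kilobase, diffSpliceDGE and leaving out each library.

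The members, the lists and the tests were chosen with earlier results of these data known. The rule for naming covered all members, the most abundant row of each class of a member, up to 3 genes of each list with the largest change past the threshold and non-overlapping groups at a mean of 1 CPM or more, the 3 genes most like the members and 16 genes whatever their result, of which not all appear. Other rows, such as SRSF1-204, SRSF2-203, SRSF2-209, SRSF3-204, SRSF3-208, SRSF5-202, SRSF5-207, SRSF5-209 and SRSF7-205, were chosen after their values were seen.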

Additional observations from a re-analysis of the deposited data

How the results depend on the processing

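No paired analysis was possible because the table's columns carry no replicate number of the labels, so the planned fit with a replicate number as a block was not run. The falls of SRSF1, SRSF2, SRSF3, SRSF6, SRSF7, SRSF10 and SRSF11 and the rise of SRSF5 as gene sums kept their direction and call under the 12 alternatives run. With limma on FPKM 1 member rose as a gene sum, SRSF5. The members with a fallen ratio numbered 1 (SRSF11) with all types other than protein_coding in the numerator and 1 with diffSpliceDGE, and 7 members rose with diffSpliceDGE. Without a low-count filter 11 of the members' transcript rows rose, and leaving out 1 library gave 8 to 14, where 17 rose with all 6. Over all genes, the count with a changed ratio, 1038, was 124 with NMD rows alone, 1688 with diffSpliceDGE and 567 to 794 without 1 library. The ratio calls of SRSF3 and SRSF5 held in each of these. List genes that turned sign were HNRNPK (-0.0536) and RBM8A (-0.00701) with library totals and U2AF2 (-0.0827) and HNRNPL (-0.00814) with limma on FPKM. The cause was not tested. Scaling by library totals moved the median log2 change of all genes from 0.02 to -0.13. Rows with few counts limit what the row and ratio tests can call.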
